A study of Homo sapiens with 36 samples.

Results

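The comparison set plasma membrane damage-dependent senescence (PMD-Sen) against DNA damage response-dependent senescence (DDR-Sen) shortly after the inducing agent had been washed away. WI-38 cells, an established line of normal human lung fibroblasts with a limited lifespan, had been treated for 24 h with 0.0095% sodium dodecyl sulphate (SDS), a detergent that injures the plasma membrane, or with 250 nM doxorubicin (DXR), a DNA-damaging drug. The cells were then washed and cultured in plain medium, and were collected 1 day (D1) and 2 days (D2) later. The members were the 4 PMD-Sen libraries (D1 and D2, 2 replicates each) and the 4 DDR-Sen libraries of the same days, which are 8 of the 36 small RNA libraries of the series, and every miRNA listed was used. The other 28 libraries held PMD-Sen and DDR-Sen cells of other days, untreated proliferating cells (Ctrl) and cells in replicative senescence, and were used here only in the fits of all 36 libraries, which gave every contrast with Ctrl, D0 or D6 to D16. All groups share the WI-38 line, and the SDS and DXR groups share the 24 h of treatment before washout. The Ctrl cells and the cells in replicative senescence received neither agent, and of these only Ctrl was set against the series. The study describes the libraries of a time point as 2 biological replicates without saying how the cultures were kept apart, so the p-values measure the spread between these libraries.

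A miRNA is a short RNA that guides an Argonaute protein to messenger RNAs and lowers their translation or stability. Its target choice rests mainly on the seed, bases 2 to 8 from the 5′ end, so miRNAs of the same seed form a family with largely shared targets. In fibroblasts a few families (let-7, miR-100, miR-125, miR-21, miR-10, miR-30) make up most of the miRNA pool, while the miR-34 family is known as a direct transcriptional target of p53 and miR-146 as a target of NF-kB, both of which are active in senescent cells.

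The following mature sequences belong to miRNAs that carried the comparison: both arms of the miR-335 and miR-490 hairpins, the called miR-30 members, miR-34a, miR-146b, the abundant miR-10a and miR-100, and miR-320c, which lay in the opposite direction. miR-146a-5p and miR-320b, which were not called, are shown because they share a seed with miR-146b-5p and miR-320c. They were taken from RefSeq (GRCh38.p14), are written 5′ to 3′, and have the seed in capitals.
miR-335-3p: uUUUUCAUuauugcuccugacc
miR-335-5p: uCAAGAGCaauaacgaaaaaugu
miR-490-3p: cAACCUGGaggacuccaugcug
miR-490-5p: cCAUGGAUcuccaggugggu
miR-30a-5p: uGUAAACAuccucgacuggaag
miR-30c-5p: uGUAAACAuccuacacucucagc
miR-30e-5p: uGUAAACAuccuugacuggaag
miR-30a-3p: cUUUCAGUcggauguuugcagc
miR-30e-3p: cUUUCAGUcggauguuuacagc
miR-34a-5p: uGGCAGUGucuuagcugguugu
miR-146b-5p: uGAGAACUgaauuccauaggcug
miR-146a-5p: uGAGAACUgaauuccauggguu
miR-10a-5p: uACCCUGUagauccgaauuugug
miR-100-5p: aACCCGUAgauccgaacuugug
miR-320c: aAAAGCUGgguugagagggu
miR-320b: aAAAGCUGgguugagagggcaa
In these lines the 3 miR-30 5p members share the seed GUAAACA, the 2 miR-30 3p arms share UUUCAGU, miR-146a and miR-146b share GAGAACU, and miR-320b and miR-320c share AAAGCUG.

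The libraries were of unequal depth. The PMD-Sen libraries held 150608 to 378497 miRNA counts and the DDR-Sen libraries 333206 to 1010194, a geometric mean 2.18-fold higher in DDR-Sen (exact permutation test, two-sided, p = 0.0571, 4 against 4). The 10 most abundant miRNAs took 48.7% to 53.5% of the counts of a PMD-Sen library and 55.5% to 56.9% of those of a DDR-Sen library, without overlap (exact permutation test, two-sided, p = 0.0286, the smallest p that 4 against 4 can give). The PMD-Sen replicate 2 libraries of both days had the highest slopes of miRNA level on GC content. Their log2 level rose by 0.30 (D1) and 0.27 (D2) per 10 percentage points of GC relative to the mean of all 8 libraries. The slopes of the others ran from -0.24 (DDR-Sen D1 replicate 1) to -0.04. As each slope is relative to that mean, positive slopes in some libraries make those of others negative. The counts of calls, and the values of some miRNAs, are therefore also given without these 2 libraries. Not every call lost without them is named. miRNAs enriched in fibroblasts (miR-100, miR-21, miR-143, miR-199a and others) summed to 121630 to 178371 CPM (counts relative to the TMM-scaled total of the library) in PMD-Sen, against 196711 to 245550 CPM in DDR-Sen, so the labelled cell type carried its markers in every library. miRNAs of other cell types were at lower levels. Epithelial miRNAs (the miR-200 family and miR-205) summed to 83.5 to 150 CPM in PMD-Sen and 45.3 to 92.4 CPM in DDR-Sen, neural and muscle miRNAs to 0 to 18.0 CPM and 15.1 to 44.5 CPM, and the endothelial miR-126 arms to 69.4 to 126 CPM and 75.3 to 131 CPM. Blood and serum miRNAs summed to 267 to 712 CPM in PMD-Sen and 531 to 708 CPM in DDR-Sen. Of these, miR-486-5p had 50 to 79 counts per PMD-Sen library and 141 to 370 per DDR-Sen library. miR-122-5p had 31 to 64 and 30 to 101 counts. By contrast, miR-142-5p had 0 counts in all 8 libraries and miR-451a 5 counts in each series. The part of these miRNAs in the differences was not tested.

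Of the 308 miRNAs tested, 23 differed between PMD-Sen and DDR-Sen over D1 and D2 (edgeR quasi-likelihood test, Benjamini-Hochberg adjusted p below 0.05). The fit had day as a covariate and left the replicates unpaired. With the replicate number as a block 65 passed. Without it, DDR-Sen had the higher level in 22 of the 23 (7.14% of those tested) and PMD-Sen in 1 (0.325%). The 22 comprised both arms of miR-335, miR-490, miR-30a and miR-30e, the p53 targets miR-34a-5p and miR-34c-5p, the NF-kB target miR-146b-5p, and abundant fibroblast miRNAs such as miR-100-5p, miR-10a-5p, miR-26a-5p, miR-143-3p, let-7f-5p and miR-125b-5p. The miRNA higher in PMD-Sen was miR-320c. In 20 of the 22 every PMD-Sen library lay below every DDR-Sen library, as it did in 40 of all 308 miRNAs (13.0%), and in 15 miRNAs (4.87%) every PMD-Sen library lay above. As these are bulk samples, fewer cells that carry a miRNA and less of it per cell cannot be told apart.

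The balance of the calls depended on the scaling and on the pairing of replicates. All values here are on the TMM scale, on which the median difference of the 308 miRNAs was -0.02 (log2). Scaling by total counts moved that median to 0.29 and gave 29 calls toward PMD-Sen and 13 toward DDR-Sen, so that 69.0% of the calls were then higher in PMD-Sen, against 4.35% on the TMM scale. DESeq2 gave 15 and 26 (36.6%), its size factors in edgeR 4 and 17 (19.0%), and a fit of all 36 libraries 23 and 24 (48.9%). With the replicate number as a block, 18 miRNAs were higher in PMD-Sen (5.84%) and 47 in DDR-Sen (15.3%). All 23 miRNAs kept the sign of their difference under every setting run.

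Single libraries also moved the count. The 22 miRNAs higher in DDR-Sen became 12 without PMD-Sen D2 replicate 2, 13 without DDR-Sen D2 replicate 1 and 14 without DDR-Sen D1 replicate 1. The count of miRNAs higher in PMD-Sen rose to 9 without PMD-Sen D2 replicate 1, to 3 without PMD-Sen D1 replicate 2 and to 2 without PMD-Sen D1 replicate 1, and was 0 without DDR-Sen D1 replicate 1, PMD-Sen D2 replicate 2 or either DDR-Sen D2 library. Without both PMD-Sen replicate 2 libraries, 17 miRNAs were higher in DDR-Sen and 3 in PMD-Sen, and 16 of the 23 were called. 11 miRNAs were called whichever library was left out, namely both arms of miR-335 and of miR-30a, miR-490-3p, miR-34c-5p, miR-146b-5p, miR-10a-5p, miR-100-5p, miR-26a-5p and miR-30c-5p.

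**Figure D1:**
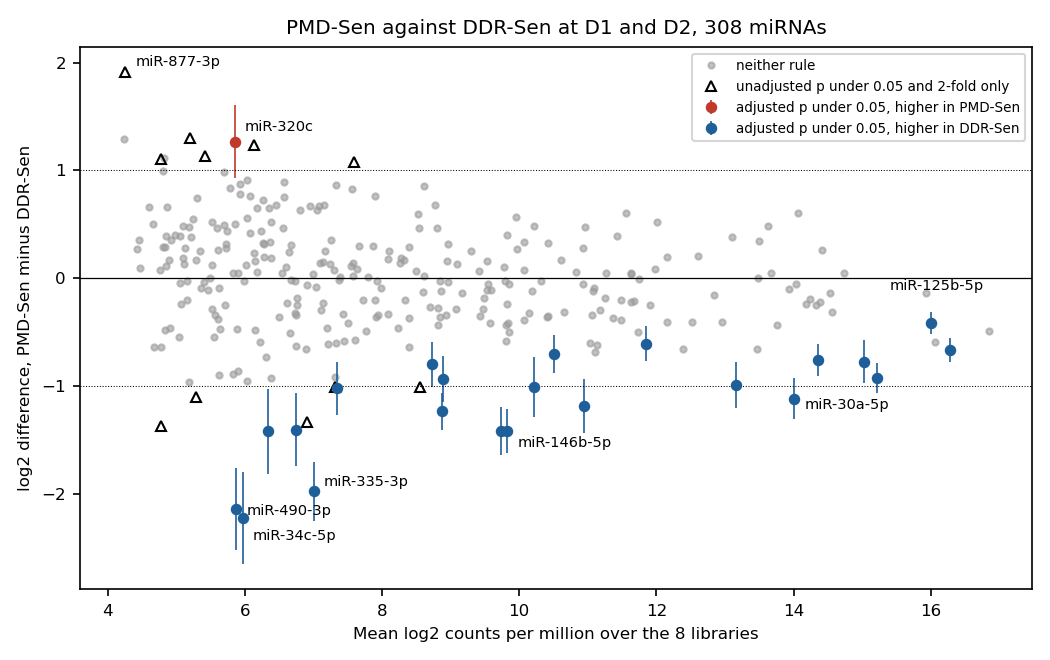
The log2 difference, PMD-Sen minus DDR-Sen over D1 and D2 (vertical axis), is plotted against the mean log2 CPM over the 8 libraries (horizontal axis) for 308 miRNAs. Blue and red points with bars of 1 SE passed an adjusted p of 0.05 (22 higher in DDR-Sen, 1 in PMD-Sen), triangles passed only the study's thresholds, and dotted lines mark a 2-fold difference.

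The miR-335 hairpin lies in an intron of MEST, an imprinted gene of mesodermal tissue. Its 3p arm (chr7:130496162-130496183, plus strand) had 35.9 and 28.9 CPM in the PMD-Sen D1 libraries and 66.8 and 57.0 CPM at D2, against 191 and 162 CPM in DDR-Sen D1 and 224 and 168 CPM in DDR-Sen D2. Every DDR-Sen library was more than 2-fold above every PMD-Sen library of miR-335-3p, although PMD-Sen rested on 5 to 28 counts per library. The level was 3.93-fold lower in PMD-Sen (log2 difference -1.97 ± 0.28 SE, edgeR adjusted p = 0.00115). The 5p arm (chr7:130496126-130496148) was the more abundant, with 629, 382, 472 and 338 CPM in PMD-Sen (D1 replicates 1 and 2, then D2 replicates 1 and 2) and 1477, 973, 1345 and 1078 CPM in DDR-Sen. Its libraries did not overlap either, and the level was 2.67-fold lower in PMD-Sen (-1.42 ± 0.22 SE, edgeR adjusted p = 0.00179). Both arms of the hairpin were thus lower in PMD-Sen, the scarce 3p arm by the larger ratio, a contrast between arms that was not tested.

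miR-490 lies in an intron of CHRM2, a muscarinic acetylcholine receptor gene, also on chromosome 7. miR-490-3p (chr7:136903242-136903263, plus strand) had 18.0, 23.1, 19.1 and 11.4 CPM in the PMD-Sen libraries and 103, 62.6, 88.1 and 61.6 CPM in the DDR-Sen libraries. The PMD-Sen values came from 3 to 8 counts per library and the DDR-Sen values from 18 to 93, and the groups did not overlap. The difference was 4.41-fold (-2.14 ± 0.38 SE, edgeR adjusted p = 0.00359). miR-490-5p (chr7:136903205-136903224) had 39.5, 28.9, 21.5 and 68.5 CPM in PMD-Sen and 96.4, 121, 133 and 65.0 CPM in DDR-Sen. Here the highest PMD-Sen library (D2 replicate 2) passed the lowest DDR-Sen library (D2 replicate 2), and the difference of 2.67-fold was near the threshold (-1.42 ± 0.39 SE, edgeR adjusted p = 0.0456) and was lost in 5 of the 8 fits that left out a library. Those were the fits without PMD-Sen D1 replicate 1, PMD-Sen D2 replicate 1, either DDR-Sen D1 library or DDR-Sen D2 replicate 1.

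The called miR-30 members come from 2 clusters that each carry a miR-30c gene, one with miR-30a in LINC00472 on chromosome 6 and one with miR-30e in NFYC, a subunit gene of the transcription factor NF-Y, on chromosome 1. The family's targets are known to include genes of autophagy, fibrosis and the cell cycle. Of 8 tested members 5 were higher in DDR-Sen, against 7.14% of all 308 miRNAs, and all 8 had a lower level in PMD-Sen, with a median difference of -1.06 on the TMM scale (-0.75 on total counts), against -0.02 (0.29) over all 308 miRNAs. With the block 6 passed, against 15.3% of all 308 in that direction. miR-30a-5p (chr6:71403595-71403616, minus strand), the most abundant of the 5, had 11034, 7412, 13951 and 9401 CPM in PMD-Sen and 25505, 16656, 25510.2 and 22493 CPM in DDR-Sen. The groups did not overlap, and the level was 2.17-fold lower in PMD-Sen (-1.12 ± 0.19 SE, edgeR adjusted p = 0.00256). Its passenger arm miR-30a-3p (chr6:71403554-71403575) had 262, 272, 303 and 251 CPM against 609.5, 574, 695 and 688 CPM, with no overlap (-1.23 ± 0.17 SE, edgeR adjusted p = 0.00115).

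miR-30c-5p, which both clusters encode, had 1692, 874, 1497 and 730.1 CPM in PMD-Sen and 2895, 2409, 2967 and 2646 CPM in DDR-Sen. Both replicate 2 libraries of PMD-Sen were the lower of their pair, yet no PMD-Sen library reached a DDR-Sen one (-1.18 ± 0.25 SE, edgeR adjusted p = 0.0112). miR-30e-5p (chr1:40754371-40754392, plus strand) had 852, 417, 1144 and 730.1 CPM against 2159, 1091, 1516 and 1506 CPM. Its highest PMD-Sen library lay above its lowest DDR-Sen library, and the call was close to the threshold (-1.01 ± 0.28 SE, edgeR adjusted p = 0.0456) and was lost without both PMD-Sen replicate 2 libraries (adjusted p = 0.107) and without PMD-Sen D1 replicate 1, PMD-Sen D1 replicate 2, PMD-Sen D2 replicate 2 or either replicate 1 library of DDR-Sen. miR-30e-3p (chr1:40754413-40754434) had 89.8, 40.5, 57.2 and 22.8 CPM against 176, 116, 139 and 137 CPM (-1.40 ± 0.34 SE, edgeR adjusted p = 0.0274), from as few as 6 counts. It lost the call without PMD-Sen D2 replicate 2 or either replicate 1 library of DDR-Sen. The 3 members shown above with the seed GUAAACA and the 2 shown with UUUCAGU were called. The other tested members of the family, whose seeds were not compared here, were not. Of the members of other hairpins, for which no sequence was used here, miR-30b-5p differed by -0.93 ± 0.37 SE (adjusted p = 0.142) and miR-30d-5p by -0.25 ± 0.12 SE (adjusted p = 0.194, and 0.08 on total counts). miR-30c-2-3p, the passenger arm of the chromosome 6 copy of miR-30c, was not called either (-0.46 ± 0.24 SE, adjusted p = 0.232).

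**Figure D2:**
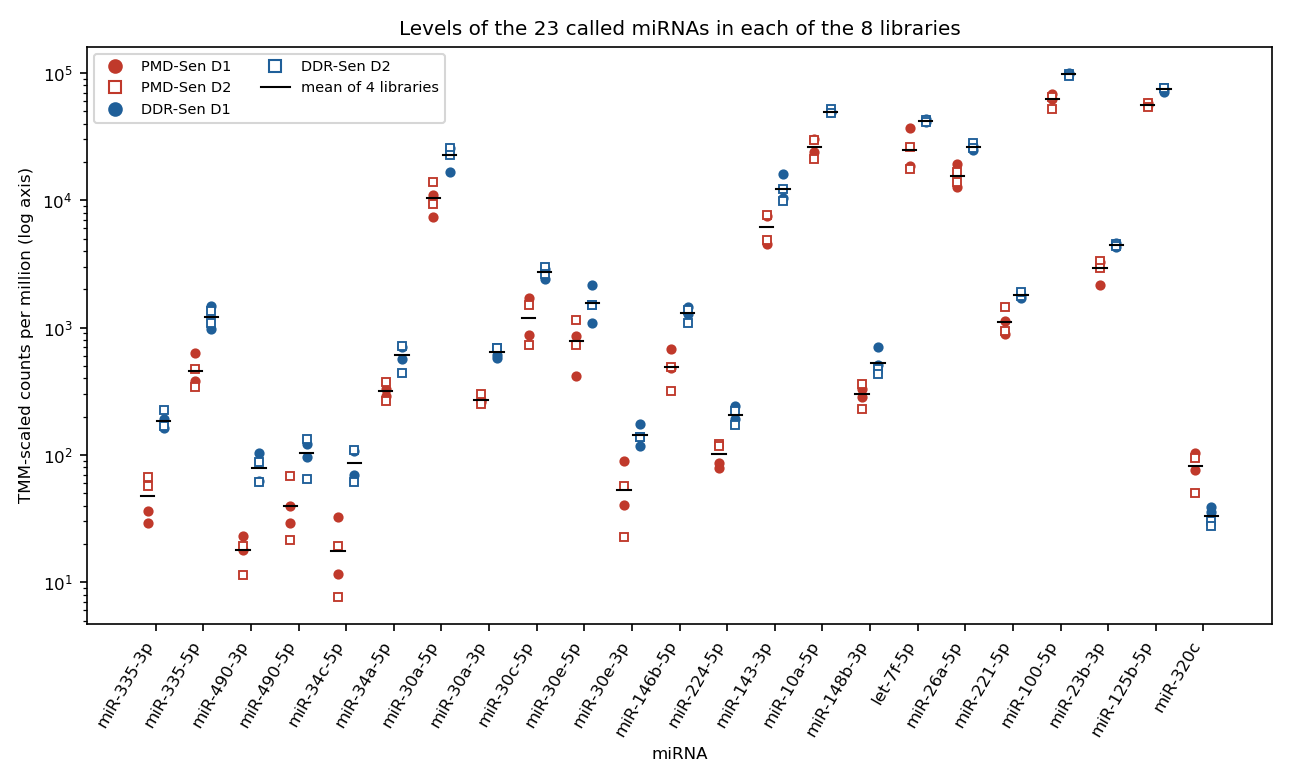
Levels of the 23 called miRNAs in each of the 8 libraries, in TMM-scaled CPM on a log axis, with circles for D1, open squares for D2 and a bar at the mean of 4 libraries. In 20 of the 22 miRNAs higher in DDR-Sen the red (PMD-Sen) points lie wholly below the blue (DDR-Sen) points, the exceptions being miR-490-5p and miR-30e-5p, and miR-320c alone is reversed.

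Among the miRNAs known to be induced by p53 (miR-34a, miR-34b, miR-34c, miR-192, miR-194, miR-215 and miR-605), 4 of the 14 names in the table were abundant enough to test and 2 were higher in DDR-Sen, against 7.14% of all 308 miRNAs. miR-34c-5p had 32.3, 11.6, 19.1 and 7.61 CPM in PMD-Sen, from 2 to 9 counts, and 106, 69.0, 108 and 61.6 CPM in DDR-Sen, from 18 to 96 counts. Each DDR-Sen library was above each PMD-Sen library, and the difference of 4.67-fold had the largest size of all 308 (-2.22 ± 0.43 SE, edgeR adjusted p = 0.00665). miR-34a-5p (chr1:9151735-9151756, minus strand), whose host MIR34AHG is a long non-coding RNA, had 331, 289, 377 and 266 CPM against 700.4, 565, 718 and 442 CPM. It too did not overlap (-0.93 ± 0.21 SE, edgeR adjusted p = 0.0189), but the call was lost without PMD-Sen D1 replicate 1, PMD-Sen D2 replicate 2 or either replicate 1 library of DDR-Sen, and with both PMD-Sen replicate 2 libraries out the adjusted p was 0.0552. miR-192-5p had a difference of -0.95 ± 0.46 SE (adjusted p = 0.206) and miR-194-5p one of -0.23 ± 0.30 SE (adjusted p = 0.678), and the median of the 4 was -0.94 (-0.64 on total counts).

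miR-146b-5p and miR-146a-5p are induced by NF-kB and act on IRAK1 and TRAF6, adaptors of innate immune signalling. miR-146b-5p (chr10:102436520-102436542, plus strand, between genes) had 675, 480.3, 489 and 319 CPM in PMD-Sen and 1456, 1281, 1368 and 1089 CPM in DDR-Sen. The lowest DDR-Sen library was above the highest PMD-Sen library by a clear margin, and the level was 2.66-fold lower in PMD-Sen (-1.41 ± 0.20 SE, edgeR adjusted p = 0.00115). Its passenger arm miR-146b-3p, with 2 to 5 counts per PMD-Sen library, differed by -1.37 ± 0.50 SE (adjusted p = 0.124), and miR-146a-5p, which has the same seed, by -0.89 ± 0.35 SE (adjusted p = 0.142). The NF-kB list of 9 tested miRNAs had 2 called, miR-146b-5p and miR-125b-5p, against 7.14% of all 308 miRNAs in that direction. Lower in PMD-Sen were 6 of the 9, against 161 of all 308, with a median of -0.41 (-0.08 on total counts). With the block 3 passed as higher in DDR-Sen, against 15.3% of all 308. miR-155-5p, another member of that list, was at 0.21 ± 0.16 SE (adjusted p = 0.432).

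Several of the most abundant miRNAs of these cells were lower in PMD-Sen by smaller ratios. miR-100-5p (chr11:122152275-122152296, minus strand), a regulator of MTOR, had 67799.9, 62643, 65029 and 51711 CPM in PMD-Sen and 99399.6, 97628, 98653 and 95266 CPM in DDR-Sen. The 4 DDR-Sen libraries lay within a narrow range, and the difference of 1.58-fold passed (-0.66 ± 0.11 SE, edgeR adjusted p = 0.00256). miR-10a-5p (chr17:48579904-48579926, minus strand), which lies within the HOXB cluster in an intron of HOXB3, had 30232, 23979, 29523 and 21052 CPM against 49575, 48951, 51894 and 47986 CPM, without overlap (-0.92 ± 0.14 SE, edgeR adjusted p = 0.00133). miR-125b-5p, encoded both in MIR100HG, the host of miR-100, and in MIR99AHG on chromosome 21, had 55767, 57505, 57774 and 53464 CPM against 71315, 75066, 76419.8 and 75778 CPM. Its libraries did not overlap on the TMM scale, but the difference of 1.33-fold was the smallest called (-0.41 ± 0.10 SE, edgeR adjusted p = 0.0288). On total counts it was -0.08 (adjusted p = 0.588), DESeq2 gave an adjusted p of 0.0657, and the call was kept in 1 of the 8 fits that left out a library, the one without PMD-Sen D1 replicate 2. Of the 9 tested members of the miR-99, miR-100 and miR-125 families, 2 were called, against 7.14% of all 308 miRNAs, and the median was 0.01.

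miR-26a-5p, made from introns of CTDSPL and CTDSP2 and known to act on EZH2, had 19122, 12689.5, 16695 and 13823 CPM in PMD-Sen and 26556, 24892, 28082 and 25715 CPM in DDR-Sen, without overlap (-0.76 ± 0.15 SE, edgeR adjusted p = 0.00678). miR-26b-5p, of the same seed UCAAGUA, differed by -0.68 ± 0.21 SE (adjusted p = 0.0699). miR-143-3p (chr5:149428978-149428998, plus strand), a miRNA of contractile and mesenchymal cells in the CARMN transcript, had 7473, 4537, 7649 and 4879 CPM against 16119, 10384, 12341 and 9946 CPM. No libraries of miR-143-3p overlapped, and the call (-0.99 ± 0.21 SE, edgeR adjusted p = 0.0138) was lost only without PMD-Sen D2 replicate 2. Of 12 tested fibroblast-enriched miRNAs, miR-100-5p and miR-143-3p were called (7.14% of all 308 were called in that direction), 8 were lower in PMD-Sen (161 of all 308) and the median was -0.33 (-0.02 on total counts). With the block 4 were higher in DDR-Sen and 1 in PMD-Sen. The jointly listed miR-199a-3p/miR-199b-3p was at -0.66 ± 0.22 SE (adjusted p = 0.0956).

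The let-7 family, which restrains RAS, HMGA2 and LIN28, had 1 of 12 tested members called, a share near the 7.14% of all 308, and 10 lower in PMD-Sen, with a median of -0.30 (0.02 on total counts, where the shift of all miRNAs was 0.29). With the block 5 passed, against 15.3% of all 308 in that direction. let-7f-5p had 36580.3, 18505, 26354 and 17607 CPM in PMD-Sen and 43311, 40922, 42808 and 41217 CPM in DDR-Sen, and both PMD-Sen replicate 2 libraries were the lowest. The difference (-0.77 ± 0.20 SE, edgeR adjusted p = 0.0348) was lost without PMD-Sen D2 replicate 2 or DDR-Sen D2 replicate 1. let-7g-5p (-0.66 ± 0.19 SE, adjusted p = 0.0502) and let-7a-5p (-0.49 ± 0.15 SE, adjusted p = 0.0678) came next.

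The remaining calls had 1 member of a family each. miR-23b-3p, whose cluster on chromosome 9 also encodes miR-27b and miR-24, had 3288, 2176, 3331 and 2909 CPM in PMD-Sen and 4305, 4599, 4559 and 4341 CPM in DDR-Sen (-0.61 ± 0.16 SE, edgeR adjusted p = 0.0356), and its neighbour miR-27b-3p differed by -0.62 ± 0.22 SE (adjusted p = 0.117). miR-148b-3p, in an intron of COPZ1, had 327, 284, 358 and 228 CPM against 699, 511, 473 and 428 CPM (-0.80 ± 0.21 SE, edgeR adjusted p = 0.0356), and miR-152-3p, of the same seed CAGUGCA, was at -0.50 ± 0.18 SE (adjusted p = 0.124). miR-221-5p, the passenger arm of a miRNA that acts on the cell-cycle inhibitor p27, had 1135, 885, 1438 and 932 CPM against 1788, 1695, 1760.5 and 1917 CPM (-0.70 ± 0.18 SE, edgeR adjusted p = 0.0288). Each of these lists had 1 called member, of 10 tested for the miR-23, miR-27 and miR-24 clusters (median -0.46), 6 for miR-130, miR-301, miR-148 and miR-152 (-0.35) and 4 for miR-221 and miR-222 (-0.19). Over all 308 miRNAs 7.14% were called in that direction. In miR-23b-3p, miR-148b-3p and miR-221-5p the libraries did not overlap, yet each was called in at most 2 of the 8 fits that left out a library, the exceptions being those without PMD-Sen D2 replicate 1 (all 3) and without DDR-Sen D2 replicate 2 (miR-23b-3p and miR-148b-3p). Without both PMD-Sen replicate 2 libraries their adjusted p values were 0.149, 0.158 and 0.158. miR-224-5p, in GABRE on the X chromosome, had 79.0, 86.8, 122 and 118 CPM against 192, 242, 171 and 219 CPM (-1.02 ± 0.25 SE, edgeR adjusted p = 0.0267). Its call was lost without PMD-Sen D1 replicate 1, PMD-Sen D2 replicate 2, either DDR-Sen D1 library or DDR-Sen D2 replicate 2.

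In the other direction stood the miR-320 family, whose main member miR-320a is known to be made without Drosha from a capped transcript. miR-320c, encoded at 2 places on chromosome 18 (chr18:21683559-21683578 and chr18:24321716-24321735, plus strand), had 75.5, 104, 50.1 and 95.1 CPM in PMD-Sen and 35.5, 38.8, 30.2 and 27.4 CPM in DDR-Sen. All PMD-Sen libraries of miR-320c were above all DDR-Sen libraries, and the level was 2.41-fold higher in PMD-Sen (1.27 ± 0.33 SE, edgeR adjusted p = 0.0356), from 8 to 32 counts per library. The 2 PMD-Sen replicate 2 libraries were the highest, and without both the difference was 0.92 (adjusted p = 0.22). It was called only without PMD-Sen D1 replicate 1 or PMD-Sen D2 replicate 1 among the fits that left out a library. miR-320b had 212, 376, 134 and 349.9 CPM against 99.7, 155, 111 and 137 CPM (1.08 ± 0.32 SE, adjusted p = 0.0637, and 0.0034 with the block). miR-320a, by far the most abundant member, had 16319, 33144, 11145 and 22695 CPM against 10122, 15336, 11570.1 and 16848 CPM (0.60 ± 0.28 SE, adjusted p = 0.193, and 0.0129 with the block). In miR-320a and miR-320b the replicate 2 library was the higher one of its pair in all 4 conditions, and without both PMD-Sen replicate 2 libraries miR-320a differed by 0.03 and miR-320b by 0.46. The 3 tested members had a median of 1.08 (1.42 on total counts).

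The study's own thresholds (unadjusted p below 0.05 and more than a 2-fold difference) took 17 miRNAs with the higher level in DDR-Sen (5.52%) and 7 with the higher level in PMD-Sen (2.27%). Of the 17, 12 also passed the adjusted p. Beyond miR-320c and miR-320b the 7 included miR-877-3p, which is cut from an ABCF1 intron, with 32.3, 23.1, 14.3 and 34.2 CPM against 7.76, 6.47, 2.52 and 10.3 CPM (1.92 ± 0.58 SE, adjusted p = 0.0637). They also included miR-337-5p, of the imprinted miRNA cluster on chromosome 14 (14q32), with 115, 52.1, 129 and 72.3 CPM against 42.1, 51.8, 37.8 and 27.4 CPM (1.24 ± 0.36 SE, adjusted p = 0.0553), miR-4485-3p (1.30 ± 0.48 SE, adjusted p = 0.124), miR-1292-5p and miR-3187-3p. Neither miR-877-3p nor miR-337-5p overlapped between the series, where 4.87% of all 308 had every PMD-Sen library above. But miR-877-3p rested on 1 to 9 counts per library. miR-337-5p was parted only by 52.1 against 51.8 CPM, from 9 counts in PMD-Sen D1 replicate 2 and 24 in DDR-Sen D1 replicate 2. On the DDR-Sen side, miR-486-5p, an erythroid miRNA, had 201, 457, 165 and 190.1 CPM in PMD-Sen and 410.1, 438, 609 and 483 CPM in DDR-Sen. PMD-Sen D1 replicate 2 lay among the DDR-Sen libraries (-1.005 ± 0.30 SE, adjusted p = 0.0637). miR-542-3p, of the miR-424 and miR-503 cluster, had 89.8, 0, 85.8 and 57.0 CPM against 212, 142, 164 and 109.6 CPM (-1.34 ± 0.49 SE, adjusted p = 0.124). Its 0 in PMD-Sen D1 replicate 2 stands for 0 of 150608 counts, which allows up to 3 counts, or 19.9 CPM of the unscaled total.

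Other lists had no member at an adjusted p below 0.05 without the block. With the block 7 of the 14q32 miRNAs passed (5 higher in DDR-Sen and 2 in PMD-Sen), 2 of the miR-424 and miR-503 cluster (1 in each direction), 1 each of the miR-17 clusters and the miR-29 family (higher in DDR-Sen) and 1 of the miR-15/16 family (higher in PMD-Sen). Of all 308 miRNAs, 15.3% passed with the block as higher in DDR-Sen and 5.84% as higher in PMD-Sen. Without regard to a call, 161 of the 308 were lower and 147 higher in PMD-Sen. Of the miR-17 clusters, which promote proliferation, 0 of 13 tested members passed in edgeR and 0 in DESeq2 (1 at an unadjusted p below 0.05, miR-93-5p at -0.38 ± 0.14 SE), with a median of 0.14 (0.45 on total counts) and 8 of 13 higher in PMD-Sen. miR-92a-3p was at 0.26 ± 0.16 SE and miR-106b-5p at -0.61 ± 0.35 SE. Of the 14q32 miRNAs, a large imprinted cluster, 0 of 63 passed in edgeR and 2 in DESeq2 (8 unadjusted), with 32 lower and 31 higher in PMD-Sen and a median of -0.01 (0.31 on total counts). The miR-424 and miR-503 cluster, which slows the cell cycle, had 0 of 7 in edgeR and 2 in DESeq2 (2 unadjusted), with miR-424-3p at 0.48 ± 0.16 SE and miR-542-3p at the opposite sign. The miR-193 and miR-365 clusters had 0 of 6 in edgeR and 0 in DESeq2 (1 unadjusted), with 5 of 6 higher in PMD-Sen, a median of 0.65 (1.00 on total counts), and miR-193b-5p at 0.91 ± 0.42 SE and miR-193b-3p at 0.63 ± 0.25 SE. The miR-15/16 family (0 of 4, 1 in DESeq2, 1 unadjusted), the miR-181 family (0 of 6, 0 in DESeq2, 1 unadjusted), the miR-29 family (0 of 3, 0 in DESeq2, 1 unadjusted) and the miR-532/500/660 cluster (0 of 7, 0 in DESeq2, 0 unadjusted) had medians of 0.01, 0.01, 0.16 and 0.30. miRNAs that overlap other small RNAs (miR-664a, miR-1260b and others) had 0 of 4 in edgeR and 0 in DESeq2 (1 unadjusted), with a median of 0.26. Of the marker lists, miR-200c-3p was at 0.87 ± 0.39 SE (adjusted p = 0.182) and miR-122-5p at 0.35 ± 0.29 SE (adjusted p = 0.456). Of the 21 tested miRNAs that the study names in its text, 6 were called, all higher in DDR-Sen, against 7.14% of all 308. With the block 10 of the 21 passed, against 15.3% of all 308 in that direction, and 13 of the 21 were lower in PMD-Sen. The study chose this list on these samples, so it is no independent evidence. miR-101-3p (-0.91 ± 0.36 SE, adjusted p = 0.142) and miR-374b-5p (0.47 ± 0.19 SE, adjusted p = 0.142) were among those not called.

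**Figure D3:**
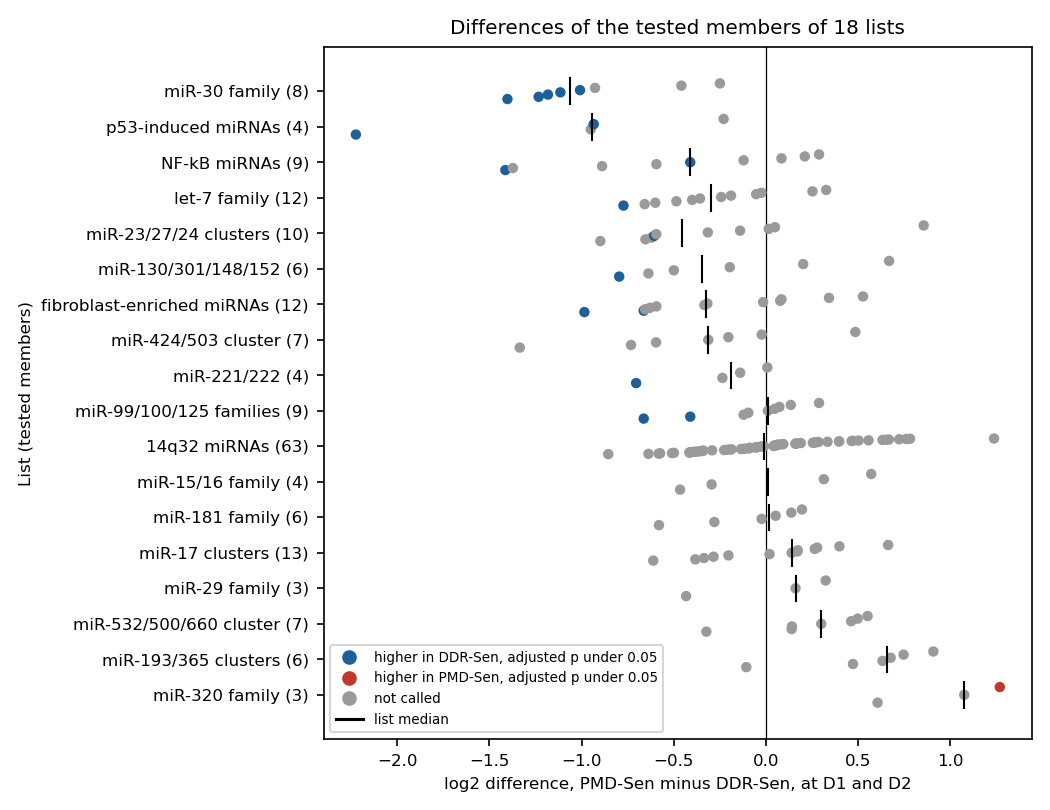
Log2 differences (PMD-Sen minus DDR-Sen, horizontal axis) of the tested members of 18 lists, 1 point a miRNA, with the list median as a black bar and called miRNAs in blue (higher in DDR-Sen) or red (higher in PMD-Sen). The miR-30 family (median -1.06) and the p53-induced miRNAs (-0.94) lie wholly left of 0, the miR-320 family (1.08) wholly right, and the 14q32 miRNAs (-0.01) are spread around 0.

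The days were also taken separately. At D1 1 miRNA passed (0.325%), miR-335-3p (-2.41 ± 0.41 SE, edgeR adjusted p = 0.0364). At D2 7 passed (2.27%), namely miR-146b-5p (-1.59 ± 0.29 SE, edgeR adjusted p = 0.0389), miR-30a-3p, miR-335-5p, miR-10a-5p, miR-335-3p (-1.65 ± 0.36 SE), miR-100-5p and miR-486-5p (-1.63 ± 0.37 SE), each higher in DDR-Sen. With the block 48 passed at D1 and 40 at D2. The D1 count was 22 without PMD-Sen D1 replicate 1, 4 without PMD-Sen D2 replicate 1, 3 without DDR-Sen D1 replicate 2, and 0 without PMD-Sen D1 replicate 2, either replicate 1 library of DDR-Sen or DDR-Sen D2 replicate 2. The D2 count was 17 without either PMD-Sen D1 library and 0 without PMD-Sen D2 replicate 2 or either DDR-Sen D2 library. Where such a fit left 1 library in a condition of that day, that library was assumed to vary like the other conditions. The difference itself did not pass a test of change from D1 to D2 in any miRNA (0 of 308 in edgeR, 0.0%, smallest adjusted p = 0.954, and 0 in DESeq2), with 10 miRNAs at an unadjusted p below 0.05 in edgeR and 8 in DESeq2. All 22 miRNAs higher in DDR-Sen had a lower level in PMD-Sen on both days, but these are the libraries that picked them. Of all 308 miRNAs, 163 were lower in PMD-Sen at D1 and 170 at D2. miR-335-3p had the wider gap at D1 and miR-34c-5p (-1.90 ± 0.62 SE at D1, -2.56 ± 0.64 SE at D2) at D2, but neither change passed (adjusted p = 0.954 for both).

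Each series was then set beside the 2 Ctrl libraries of proliferating cells, in the fit of all 36 libraries, where 9 of 360 miRNAs passed for PMD-Sen (2.5%) and 6 for DDR-Sen (1.67%). The 2 comparisons share the Ctrl libraries. miR-490-3p had 103 and 129 CPM in Ctrl on the scale of the 36 libraries, and PMD-Sen was lower than Ctrl by the test (-2.61 ± 0.41 SE, edgeR adjusted p = 0.00015), while DDR-Sen was at -0.59 ± 0.34 SE (adjusted p = 0.34). miR-335-3p was likewise lower in PMD-Sen than in Ctrl (-2.27 ± 0.40 SE, edgeR adjusted p = 0.000667), and DDR-Sen was at -0.37 ± 0.35 SE (adjusted p = 0.597), although the Ctrl libraries themselves stood at 142 and 317 CPM. Over the 22 miRNAs higher in DDR-Sen, PMD-Sen lay below Ctrl in 21 and DDR-Sen above Ctrl in 19. Of all 360 miRNAs, PMD-Sen lay below Ctrl in 176 and DDR-Sen lay below Ctrl in 186. The 22 were picked for a difference between the series in these same libraries, so their lying on either side of Ctrl is no separate evidence. In each comparison 2 of the 22 passed the test. miR-10a-5p (0.59 ± 0.16 SE, edgeR adjusted p = 0.0472) and miR-125b-5p (0.45 ± 0.12 SE, edgeR adjusted p = 0.0472) were higher in DDR-Sen than in Ctrl, and PMD-Sen was at -0.21 ± 0.15 SE (adjusted p = 0.547) and 0.17 ± 0.12 SE (adjusted p = 0.497). The 6 DDR-Sen calls against Ctrl fell to 1 with the GC trend removed and to 0 in libraries thinned to the smallest total. For the other called miRNAs neither series passed against Ctrl. miR-34a-5p was at -0.07 ± 0.25 SE in PMD-Sen and 0.75 ± 0.25 SE in DDR-Sen, miR-30a-5p at -0.31 ± 0.20 SE and 0.68 ± 0.21 SE, miR-146b-5p at -0.69 ± 0.26 SE and 0.60 ± 0.26 SE, and miR-320c at 0.60 ± 0.41 SE and -0.81 ± 0.42 SE. The DDR-Sen count fell to 1 without DDR-Sen D1 replicate 2 or either DDR-Sen D2 library and to 2 without DDR-Sen D1 replicate 1, and DESeq2 gave 16 and 20 in place of 9 and 6.

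The difference at D1 and D2 was compared with that at D0, the end of the 24 h of treatment before washout, and with that at D6, D8 and D16. Both were tested as differences of differences in the fit of all 36 libraries. Against D0 1 of 360 miRNAs passed (0.278%), miR-1260b, which was 3.25 ± 0.51 SE (log2) higher in PMD-Sen than in DDR-Sen at D0 and 0.47 ± 0.34 SE higher at D1 and D2 (change -2.79 ± 0.61 SE, edgeR adjusted p = 0.0276). Reads of miR-1260b can overlap those of a transfer RNA. None of the 22 miRNAs higher in DDR-Sen changed from D0 by that test, and 21 of them were also lower in PMD-Sen at D0 (184 of all 360). miR-335-3p was at -2.78 ± 0.60 SE, miR-34a-5p at -1.30 ± 0.32 SE, miR-34c-5p at -1.97 ± 0.70 SE and miR-146b-5p at -0.35 ± 0.31 SE at D0. The PMD-Sen D0 libraries were shallow, with 104446 and 81679 counts, where 3 counts make 28.7 and 36.7 CPM of the unscaled total. Scarce miRNAs rested on few counts there, so the lack of a call against D0 does not show that a difference was unchanged. The count was 0 without DDR-Sen D1 replicate 2 or DDR-Sen D2 replicate 2, and 2 without DDR-Sen D1 replicate 1 or either PMD-Sen replicate 2 library.

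Against D6 to D16, 43 miRNAs passed (11.9%), 27 with a difference that was higher at D1 and D2 and 16 with one that was lower. Of the 22 miRNAs higher in DDR-Sen, 9 were among the latter, with a smaller gap between the series later on. The 22 were picked by their gap in the D1 and D2 libraries, which this contrast uses again. A smaller gap later is thus partly built in by that choice. miR-335-3p went from -1.91 ± 0.35 SE at D1 and D2 in this fit to -0.13 ± 0.24 SE at D6 to D16 (change -1.77 ± 0.43 SE, edgeR adjusted p = 0.00903), miR-490-3p from -2.02 ± 0.36 SE to -0.09 ± 0.23 SE (change -1.93 ± 0.43 SE, edgeR adjusted p = 0.00612) and miR-34c-5p from -2.11 ± 0.42 SE to -0.22 ± 0.30 SE (change -1.89 ± 0.52 SE, edgeR adjusted p = 0.0194). miR-143-3p turned from -0.86 ± 0.26 SE to 0.70 ± 0.21 SE (change -1.56 ± 0.34 SE, edgeR adjusted p = 0.00612). The others of the 9 were miR-30a-3p (change -0.79 ± 0.22 SE), miR-30a-5p (-0.73 ± 0.21 SE), miR-30e-3p (-1.40 ± 0.40 SE), miR-10a-5p (-0.64 ± 0.16 SE) and miR-100-5p (-0.56 ± 0.15 SE). miR-146b-5p still differed at D6 to D16 (-0.64 ± 0.17 SE), and its change was not called (adjusted p = 0.114). The miR-320 family moved the other way, miR-320c from 1.41 ± 0.34 SE to -0.66 ± 0.30 SE (change 2.06 ± 0.45 SE), miR-320b from 1.22 ± 0.32 SE to -0.68 ± 0.27 SE (change 1.90 ± 0.42 SE) and miR-320a from 0.76 ± 0.25 SE to -0.72 ± 0.21 SE (change 1.48 ± 0.33 SE), each at an edgeR adjusted p of 0.00612. This count depended on the PMD-Sen replicate 2 libraries. Without both 0 of 404 miRNAs passed in edgeR, though the smallest adjusted p was 0.0506 and 59 had an unadjusted p below 0.05. The count was 13 without PMD-Sen D2 replicate 2, 16 without PMD-Sen D1 replicate 2, 17 without either replicate 1 library of DDR-Sen, and 78 without PMD-Sen D1 replicate 1. DESeq2 called 59.

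**Figure D4:**
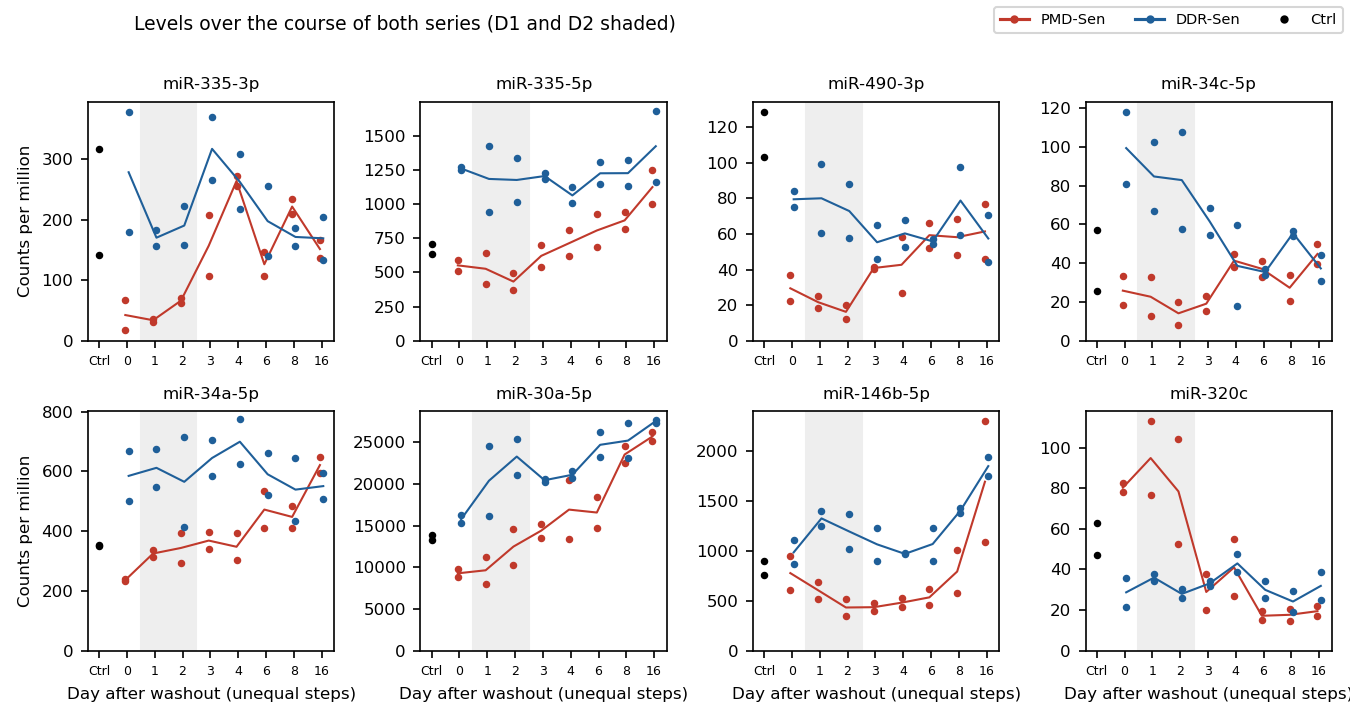
Levels of 8 miRNAs in Ctrl, at D0 (end of treatment, before washout) and on each later day, in CPM on the scale of all 36 libraries. Each point is 1 library, lines run through the means of 2 libraries (PMD-Sen red, DDR-Sen blue), and D1 and D2 are shaded. miR-335-3p, miR-490-3p and miR-34c-5p lie apart between the series at D1 and D2 (log2 differences of -1.91, -2.02 and -2.11) and together at D6 to D16 (-0.13, -0.09 and -0.22), while miR-320c starts higher in PMD-Sen and ends lower.

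The difference between the series moved with the GC content of the miRNAs. Over the 281 tested miRNAs with a RefSeq sequence, GC content and the log2 difference had a Spearman rho of 0.447 and a Pearson r of 0.414 (a description across miRNAs, which share libraries and depth). The 20 called miRNAs higher in DDR-Sen with a sequence had a median GC content of 44.7%, against 50% of all tested. miR-335-5p was at 30.4% and let-7f-5p at 31.8%, but both miR-490 arms, at 59.1% and 60%, were GC-rich and also lower in PMD-Sen. At D0 the rho was 0.205 and at D6 to D16 -0.139, and against Ctrl it was -0.405 for DDR-Sen and 0.0738 for PMD-Sen. With the GC trend of each library removed, a check chosen after seeing the data, all 22 miRNAs higher in DDR-Sen passed among 26, miR-320c among 7 higher in PMD-Sen, and with the block as well 49 and 20 passed. In that check miR-335-3p and miR-490-3p had edgeR adjusted p values of 0.000615 and 0.00107. miR-34c-5p, for which no sequence was matched and which was given the median GC content, had 0.00248 in the same fit. The trend was linear and was fitted on these same libraries, and the part of GC content in the differences was not tested.

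**Figure D5:**
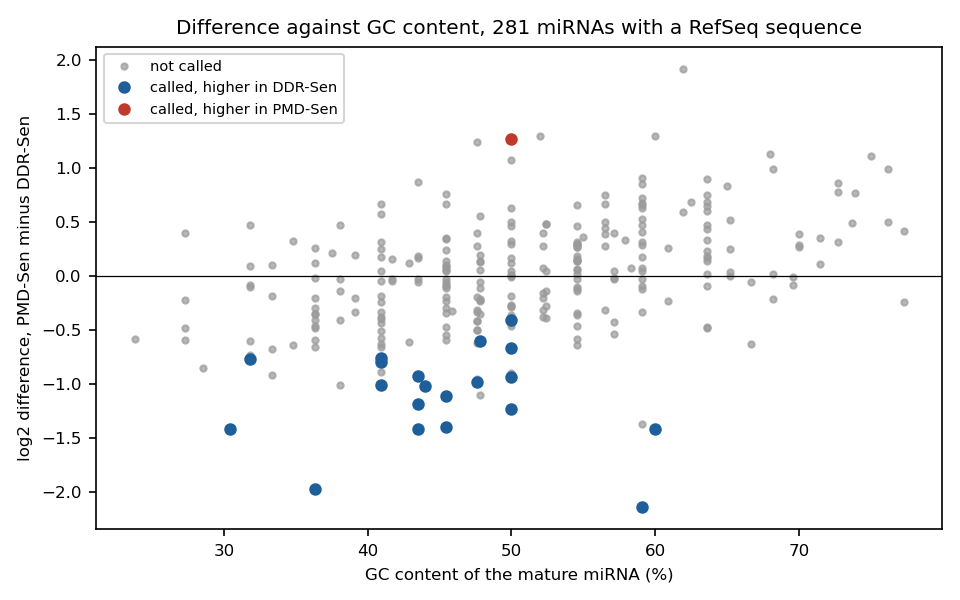
Log2 difference (PMD-Sen minus DDR-Sen, D1 and D2) against the GC content of the mature miRNA in percent, for 281 tested miRNAs, with called ones coloured. miRNAs of higher GC content tend to lie higher (Spearman rho 0.447), and the called miRNAs of DDR-Sen span 30.4% to 60%.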

How the data were processed

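Small RNA libraries were prepared from 100 ng of total RNA (NEXTFLEX kit, 17 PCR cycles) and sequenced on a MiSeq. The authors deposited expected counts per miRNA, made with exceRpt 4.6.2 on GRCh38 and miRBase (release not given in the sources used here). The table listed 1508 miRNAs in 36 libraries, 18 of them under joined names. Of 54288 values 1003 were not whole, and all were rounded to whole counts.

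The 8 libraries were fitted with edgeR 4.0.16 in R 4.3.3 (quasi-likelihood test, TMM, filterByExpr over the 4 conditions) with day and series as terms. This left 308 miRNAs, with at least 99.7% of the counts of each library, and p-values were Benjamini-Hochberg adjusted over them. Contrasts with Ctrl, D0 and D6 to D16 were fitted on all 36 libraries, with 360 miRNAs. SE was the log2 difference divided by the square root of F. The alternatives were DESeq2 1.42.0, its size factors, total counts, other filters, thinning, all 36 libraries, no day covariate, the replicate block and leaving out each library. 2 kinds were added after seeing the data: removal of a linear GC trend from each library (with and without the block), and omission of both PMD-Sen replicate 2 libraries.

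The deviations of equal replicate numbers from the condition means correlated in all 6 pairs of conditions (r = 0.128 to 0.413). A fit with the replicate number as a block was therefore run, but only as an alternative. The main fit, with its SE and p-values, leaves this pairing out. Replicate 1 was also the deeper library in all 4 conditions. Floors cover counting error only, since no use of molecular identifiers is given in the sources used here.

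The miRNAs and lists were chosen with earlier results of these data known. Named were up to 12 called miRNAs a direction by p, up to 4 a direction past the study thresholds by size, up to 3 a direction of each contrast with another period or day, the miRNAs that the study names, and up to 3 tested members of each list by p. Named outside this rule, after their values were seen, were miR-30e-3p, miR-224-5p, miR-490-5p, miR-146a-5p, miR-26b-5p, miR-1292-5p and miR-3187-3p. Sequences and positions were matched by name to RefSeq (GRCh38.p14) for 281 of the 308.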

Additional observations from a re-analysis of the deposited data

Results flagged for a closer look

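Differences of the comparison from another period were tested as differences of differences in edgeR, on all 36 libraries. From D0 to D1 and D2 the difference between the series became higher in 0 miRNAs and lower in 1, miR-1260b, by -2.79 (log2, adjusted p = 0.0276), with 28 of 360 miRNAs at an unadjusted p below 0.05 and 2 called by DESeq2.

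Against D6 to D16 the difference was higher in 27 miRNAs and lower in 16. Higher by the log2 change were miR-877-3p (2.55), miR-320c (2.06), miR-320b (1.90), miR-4485-3p (1.83), miR-200c-3p (1.79), miR-320a (1.48) and miR-374b-5p (1.20). Lower were miR-490-3p (-1.93), miR-34c-5p (-1.89), miR-542-3p (-1.83), miR-335-3p (-1.77), miR-143-3p (-1.56), miR-30e-3p (-1.40), miR-379-5p (-0.92), miR-30a-3p (-0.79), miR-30a-5p (-0.73), miR-10a-5p (-0.64), miR-100-5p (-0.56) and miR-93-5p (-0.46). With both PMD-Sen replicate 2 libraries left out 0 miRNAs passed in edgeR (59 at an unadjusted p below 0.05, smallest adjusted p = 0.0506). The GC slopes of those 2 libraries (0.30 and 0.27 per 10 percentage points) differed in sign from those of the other 6, and their part in these changes was not tested.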

How the results depend on the processing

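Of 121 counts of calls under settings other than leaving out a library, 64 stayed within 1.5-fold and 57 did not. All 23 called miRNAs kept their sign throughout, a looser measure on miRNAs picked in these same libraries. As calls, 14 of the 23 were kept on total counts, and 11 were called whichever library was left out. The count higher in PMD-Sen (1) was 15 with DESeq2, 4 with its size factors or no low-count filter, 5 with a mean of at least 10 counts or no day covariate, 8 after thinning, 29 on total counts, 23 with all 36 libraries, 18 with the replicate block, 7 with the GC trend removed, 20 with both, and 3 without both PMD-Sen replicate 2 libraries. The count higher in DDR-Sen (22) was 47 with the block, 49 with block and GC, and 13 on total counts. The causes were not tested. Past the study thresholds the count in PMD-Sen (7) was 11 with DESeq2 size factors, 16 with all 36 libraries, 21 without the filter and 24 on total counts, and in DDR-Sen (17) 30 without the filter, 7 on total counts and 8 without both replicate 2 libraries. At D1 the 1 call became 11 with DESeq2 or no filter, 5 with GC, 62 with GC and block, 48 with the block, 7 with all 36 libraries, and 0 thinned, on total counts or without both replicate 2 libraries. At D2 the 7 became 13 (DESeq2), 18 (GC), 57 (GC and block), 40 (block), 16 (all 36 libraries), 4 (thinned), and 0 with size factors, a mean of at least 10 counts or without both replicate 2 libraries. The change from D1 to D2 (0) was 5 with GC and block. Against D0 the 1 became 2 with DESeq2, GC, the block, both, no filter, thinning, total counts or without both replicate 2 libraries, and against D6 to D16 the 43 became 0 without those. PMD-Sen against Ctrl (9) was 16 with DESeq2. DDR-Sen against Ctrl (6) was 20 with DESeq2, 14 on total counts, 1 with GC, a mean of at least 10 counts or no filter, and 0 thinned. A day or condition left with 1 library was assumed to vary like the others. Leaving out each library gave 0 to 9 higher in PMD-Sen, 12 to 30 in DDR-Sen, 5 to 19 and 13 to 21 past the study thresholds, 0 to 22 at D1, 0 to 17 at D2, 0 to 0 for the change of day, 0 to 2 against D0, 13 to 78 against D6 to D16, 7 to 13 for PMD-Sen against Ctrl and 1 to 8 for DDR-Sen. miR-30d-5p reversed to 0.081 on total counts, and miR-1260b to -0.041 without both replicate 2 libraries and, with single libraries left out, ranged from -0.082 (without PMD-Sen D2 replicate 2) to 0.54. All 23 calls held with the block. With 150608 to 378497 counts in a PMD-Sen library, miRNAs near 10 CPM rested on a few counts.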
